A study of Mus musculus with 6 samples.

Results

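The 41 protein-coding genes of the mouse fibroblast growth factor (FGF) and Wnt ligand families were examined in sorted thymic epithelial cells (TEC), 22 of them FGF genes and 19 of them Wnt genes, out of 52636 gene rows in the table of read counts. Membership was fixed by gene symbol (Fgf or Wnt followed by a number and, for Wnt genes, the letter a or b), and every gene that matched was kept whatever its level. The families themselves were chosen by looking at this same contrast, in which Fgf21 was known to be among the genes with the strongest decrease, so the differences of the ligand genes between the populations are given as descriptions of these libraries and not as independent evidence. Bulk RNAseq libraries, 3 for each population, came from tuft-like and from non-tuft-like medullary TEC (mTEC) sorted from thymi of C57BL/6 mice 6 weeks old. Both populations carried the labels UEA+ and MHCIIlo and were selected as CD80-, Sca1- and CD63-. The tuft-like cells were in addition CD117+ and CD66a+, while the non-tuft-like cells lacked both of these proteins (CD117- and CD66a-). In the study's gating, tuft-like mTEC lie within CD45- and EpCAM1+ cells, a gate that would remove blood cells, fibroblasts and endothelial cells. No genotype, transgene or treatment separated the groups, and the number of animals behind each library is not given in the sources used here, so p-values measure the spread between these libraries only.

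FGFs are signalling proteins that mostly act on neighbouring cells through tyrosine kinase receptors. A few of them circulate as hormones and need a Klotho protein as co-receptor, and another few stay inside the cell. Wnts are lipid-modified glycoproteins that bind Frizzled receptors and act over short distances, some through beta-catenin and others without it. In the thymus, FGF7 and FGF10 from the mesenchyme act on the epithelium through Fgfr2, Wnt4 has been linked to the epithelial regulator Foxn1, and mTEC also transcribe many genes of other tissues, which are presented to developing T cells.

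Per library, 20097617 to 48369825 reads were counted on genes, and 3 reads, the limit that a count of 0 allows, corresponded to 0.0639 to 0.124 CPM. CPM are read counts scaled to a common library size with TMM factors, and such limits cover counting error only. Where 3 values are given for a population, they follow replicates 1, 2 and 3. All 12 tuft marker genes of a fixed list were called higher in the libraries labelled tuft-like, where their summed level was 12315 to 20472 CPM, against 780.5 to 968.9 CPM in the non-tuft-like libraries. Both populations held transcripts of the epithelial genes Epcam, Krt8, Krt18 and Cdh1 in every library, while Krt14 was called lower in tuft-like mTEC. Krt5, the remaining epithelial gene listed, was also lower, without overlap and without a call. It had 246.7, 371.5 and 394.6 CPM in the non-tuft-like and 10.1, 13.2 and 101.6 CPM in the tuft-like replicates. The marker lists of thymocytes and B cells overlapped between the populations and summed to at most 29.3 CPM in any library. The reads assigned to no gene made up 19.7% (tuft-like replicate 3) to 61.6% (tuft-like replicate 1) of all reads. "Called" means a false discovery rate (FDR) under 0.05 in edgeR's quasi-likelihood test over all 32496 genes tested. A negative log2 fold change stands for a lower level in tuft-like mTEC, and its standard error (SE) is approximate. With 3 libraries against 3, the smallest p of an exact two-sided permutation test for 1 gene is 0.10.

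Among the 39 ligand genes that passed the filter on low counts, 2 were called lower in tuft-like mTEC (Fgf21 and Wnt4) and 0 were called higher. Over all genes tested, 0.951% were called lower and 1.16% higher. At an unadjusted p under 0.05 the same edgeR test gave 5 ligand genes with a lower and 2 with a higher level, beside 4.59% and 4.38% of all genes tested. DESeq2 called 5 ligand genes lower (Fgf21, Wnt3, Wnt4, Wnt10a and Wnt10b) and 1 higher (Wnt5b), beside 2.86% and 3% of all genes. The median log2 fold change was -0.19 over the 39 genes and 0.02 over all genes. Non-tuft-like and tuft-like libraries were fully separated for 6 ligand genes with a lower and 4 with a higher level in tuft-like mTEC, where 8.85% and 7.18% of all genes tested showed no overlap in these directions. Fgf17 and Fgf20 did not pass the filter and had at most 19 and 7 counts in any library.

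The bases upstream of ligand genes whose libraries did not overlap, all lower in tuft-like mTEC, are shown for Fgf21 and Wnt4, which were called, and for Wnt3 and Wnt10b, which were not. They were read from RefSeq's promoter table of build GRCm38.p6 (mm10), which held 31 of the 41 genes, and each ends before the first annotated exon. Wnt10a, also lower without overlap, is not among these genes, and the bases upstream of Wnt8b, likewise lower without overlap, are not shown. Capitals mark matches, on either strand, to the TATA box (TATAAA), the CCAAT box (CCAAT), the GC box (GGGCGG) and the composite C/EBP-ATF element (TGATGNAA). A core of the TCF/LEF site (CTTTGA) was also searched and occurred in none of these stretches. It was found in 13.8% of all RefSeq promoters and in 5 of the 40 windows of ligand genes, each cut to 250 bases. Fgf21 lies on the minus strand (chr7:45615491-45615740), as does Wnt10b (chr15:98778151-98778400), while Wnt3 (chr11:103773925-103774149) and Wnt4 (chr4:137277385-137277488) lie on the plus strand.
Fgf21: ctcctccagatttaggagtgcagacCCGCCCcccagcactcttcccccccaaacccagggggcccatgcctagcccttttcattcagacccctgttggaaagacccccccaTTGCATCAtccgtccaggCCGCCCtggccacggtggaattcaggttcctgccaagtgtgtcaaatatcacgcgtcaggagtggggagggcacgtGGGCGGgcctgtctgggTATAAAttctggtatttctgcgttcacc
Wnt4: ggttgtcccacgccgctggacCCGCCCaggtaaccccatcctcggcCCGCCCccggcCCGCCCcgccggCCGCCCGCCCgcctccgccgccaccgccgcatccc
Wnt3: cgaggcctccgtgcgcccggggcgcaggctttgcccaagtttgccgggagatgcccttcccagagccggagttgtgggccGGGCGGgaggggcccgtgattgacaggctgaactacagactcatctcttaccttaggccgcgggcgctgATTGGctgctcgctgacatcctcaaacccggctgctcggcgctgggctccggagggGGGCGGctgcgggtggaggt
Wnt10b: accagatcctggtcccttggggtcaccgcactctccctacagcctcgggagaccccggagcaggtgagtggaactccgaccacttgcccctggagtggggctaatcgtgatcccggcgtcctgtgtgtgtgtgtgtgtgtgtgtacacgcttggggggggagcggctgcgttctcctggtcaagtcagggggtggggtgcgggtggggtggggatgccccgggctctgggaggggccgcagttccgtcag

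Upstream of Fgf21, a TATA box stood 28 to 23 bases before the transcript start and a match to the C/EBP-ATF element 139 to 132 bases before it. Of all 32851 RefSeq promoters, cut to the 250 bases before the start, 12.4% held this TATA box and 3.45% this element. Among the 40 such windows of the ligand genes, 2 held the TATA box and 1 the element. In its full window of 250 bases Wnt4 held 8 matches to the GC box, in part overlapping each other, with a GC content of 85.2%, against a median of 52.4% over all promoters. Matches to the GC box were found in 27 of the 40 ligand windows and in 32.7% of all promoters. The 250 bases of Wnt10b held none of the 5 motifs. A match describes these letters and does not show that a factor binds there.

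Fgf21 (ENSMUSG00000030827, chromosome 7 of mm10, 45613886 to 45615490, minus strand), a hormone best known from the fasting liver that signals through an FGF receptor with beta-Klotho, showed the widest gap of all ligand genes. Its level was 278.2, 152.5 and 114.4 CPM across the non-tuft-like libraries and 8.35, 6.28 and 4.94 CPM across the tuft-like ones. Every non-tuft-like library thus lay far above every tuft-like library, although the non-tuft-like libraries spread widely among themselves. The mean fell from 181.7 ± 85.7 to 6.53 ± 1.72 CPM (SD, n = 3 each), a 27.9-fold decrease (log2 fold change -4.80, SE 0.43). With any 1 library left out, the log2 fold change lay between -5.06 and -4.37. Fgf21 was still counted in every tuft-like library, with 179 to 215 reads. In bulk samples, fewer cells with a transcript and less of it per cell cannot be told apart.

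The other endocrine FGFs were scarce. Fgf15, which signals from the ileum to the liver to restrain bile acid synthesis, had 54, 5 and 86 counts across the non-tuft-like libraries and 4, 49 and 0 in the tuft-like replicates. Fgf23, the phosphate-regulating hormone of bone, had 44, 0 and 76 against 3, 20 and 0 counts. Both overlapped between the populations and neither was called (log2 fold changes -1.50 ± 2.08 and -2.40 ± 2.37, SE). Per exon length, which allows genes to be compared, Fgf21 stood at 191.0 CPM per kb in non-tuft-like and 6.86 in tuft-like mTEC. It made up 80.5% to 89.2% of the summed FGF level per kb in the non-tuft-like libraries and 12.5% to 19.4% in the tuft-like libraries. Without Fgf21, the summed level of the FGF genes was 29.1 to 35.5 CPM per kb in non-tuft-like and 36.3 to 38.2 in tuft-like mTEC.

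**Figure D1:**
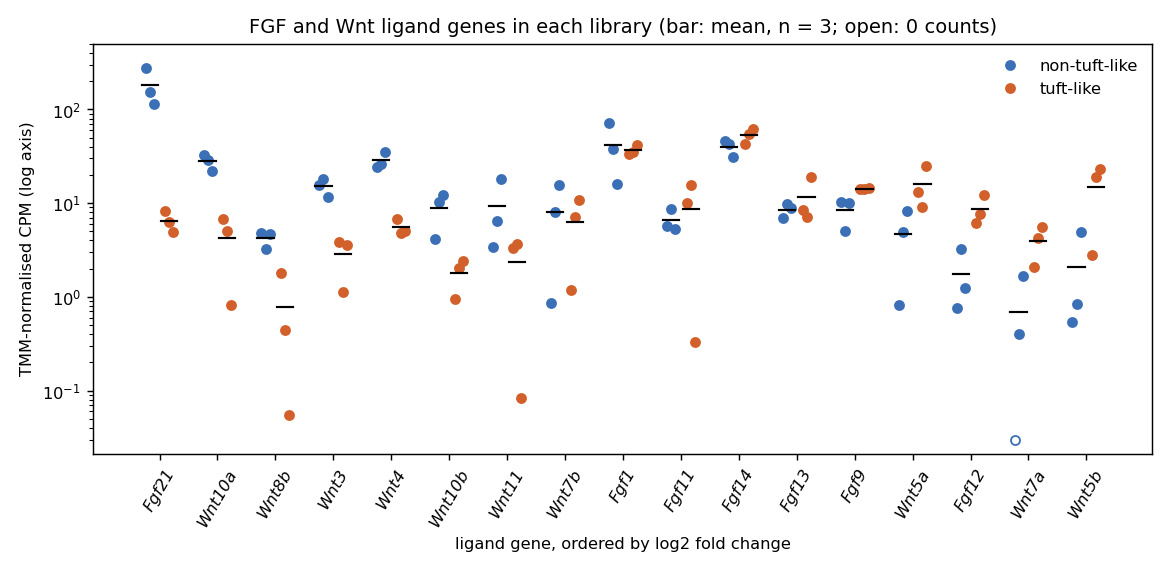
TMM-normalised CPM (log axis) of the 17 ligand genes described with values, in each of the 3 non-tuft-like (blue) and 3 tuft-like (orange) libraries, with bars at the means and an open circle for 0 counts. The tuft-like libraries lie below all non-tuft-like libraries for 6 genes, from Fgf21 to Wnt10b, and above them for Fgf9, Fgf12, Wnt5a and Wnt7a.

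In each of 5 marker lists, of mTEC and of other cells, most genes had a negative log2 fold change, as did Fgf21 and the lower Wnt genes. The fixed list of 8 mature mTEC genes, Aire and MHC class II genes among them, had a summed level of 14238 to 17866 CPM in non-tuft-like and 2256 to 4985 CPM in tuft-like mTEC, and 6 of the 8 were called lower. For this and the following lists, the share of all genes tested that were called lower was 0.951%. The 8 keratinocyte-like genes summed to 3232 to 5370 and 136.1 to 1310 CPM, with 4 called lower. The 9 enterocyte and hepatocyte genes overlapped in their sum, at 1316 to 2657 and 628.2 to 3699 CPM, with 1 called lower. Of these 9 genes, 8 had a negative log2 fold change (median -1.04), beside 49.0% of all genes tested. Reg3g, the most abundant of the list, had 1502, 2419 and 1077 against 507.4, 985.5 and 3444 CPM. The 6 cortical TEC genes summed to 322.3 to 646.5 CPM in non-tuft-like and 165.3 to 205.6 CPM in tuft-like mTEC, all at a negative log2 fold change, and only the chemokine gene Ccl25 was called lower (log2 fold change -1.85, edgeR FDR 0.0490). The 5 macrophage and dendritic cell genes summed to 45.6 to 75.6 and 10.5 to 25.7 CPM, also all negative. Of these only Cd68, which encodes a lysosomal protein, was called lower, from 39.3 ± 8.47 to 3.99 ± 0.428 CPM (SD, n = 3 each, log2 fold change -3.30, edgeR FDR 0.00280). None of the genes of these 5 lists was at 0 in all libraries. The part of these cell types and states in the levels of Fgf21 and the Wnt genes was not tested.

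The FGF homologous factors Fgf11, Fgf12, Fgf13 and Fgf14 remain inside the cell and are known for binding voltage-gated sodium channels. All 4 had a positive log2 fold change, between 0.40 and 2.32, but 0 were called, and at an unadjusted p under 0.05 edgeR's test gave only Fgf12, and DESeq2 called 0. Fgf14 (ENSMUSG00000025551, chromosome 14) was the most abundant FGF gene per exon length in tuft-like mTEC, at 12.7 CPM per kb. It had 46.0, 42.3 and 30.8 CPM in the non-tuft-like and 43.1, 54.6 and 61.3 CPM in the tuft-like replicates, so the populations overlapped (log2 fold change 0.42, SE 0.30). Fgf12 (ENSMUSG00000022523, chromosome 16) had 0.76, 3.21 and 1.24 CPM in non-tuft-like and 6.12, 7.69 and 12.2 CPM across the tuft-like libraries. All tuft-like libraries lay above all non-tuft-like libraries. The log2 fold change of 2.32 (SE 0.96) did not pass the threshold (edgeR FDR 0.464), and over 14 alternative settings it lay between 1.92 and 3.12 without a call.

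Fgf13 and Fgf11 followed no common pattern. Fgf13 had 6.94, 9.71 and 8.80 CPM in the non-tuft-like replicates and 8.47, 7.10 and 18.9 CPM in the tuft-like replicates, the last of which stood alone. Fgf11 had 5.68, 8.73 and 5.31 against 10.001, 15.6 and 0.33 CPM, so tuft-like replicate 3 was the lowest of all 6 libraries while the other tuft-like libraries were the highest. Its log2 fold change changed sign without tuft-like replicate 2 (-0.36, against 0.40 over all libraries), and that of Fgf13 without tuft-like replicate 3 (-0.16, against 0.44).

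Of the paracrine FGFs, only Fgf1 and Fgf9 reached a mean of 5 CPM in a population. Fgf1 (ENSMUSG00000036585), which can bind all FGF receptors, had 71.8, 38.0 and 16.0 CPM across the non-tuft-like libraries and 33.1, 34.96 and 42.3 CPM in the tuft-like replicates. The tuft-like values fell within the range of the non-tuft-like ones. Its means of 41.9 ± 28.1 and 36.8 ± 4.85 CPM (SD, n = 3 each) did not differ beyond the spread (log2 fold change -0.19, SE 0.48), and the sign turned without non-tuft-like replicate 1 (0.42). Fgf9 (ENSMUSG00000021974), an epithelial ligand that acts on mesenchyme in several organs, had 10.3, 5.02 and 10.1 CPM in the non-tuft-like and 14.2, 14.002 and 14.4 CPM in the tuft-like replicates. The tuft-like libraries were close together and above all non-tuft-like libraries, but the gene was not called (log2 fold change 0.75, SE 0.57). Fgf7 and Fgf10, the mesenchymal ligands of thymic epithelium, were scarce at means of 1.66 and 1.81 CPM in non-tuft-like and 0.79 and 4.87 CPM in tuft-like mTEC, and both overlapped. The same held for Fgf2, Fgf3, Fgf4, Fgf5, Fgf6, Fgf8, Fgf16, Fgf18 and Fgf22, none of which was called.

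**Figure D2:**
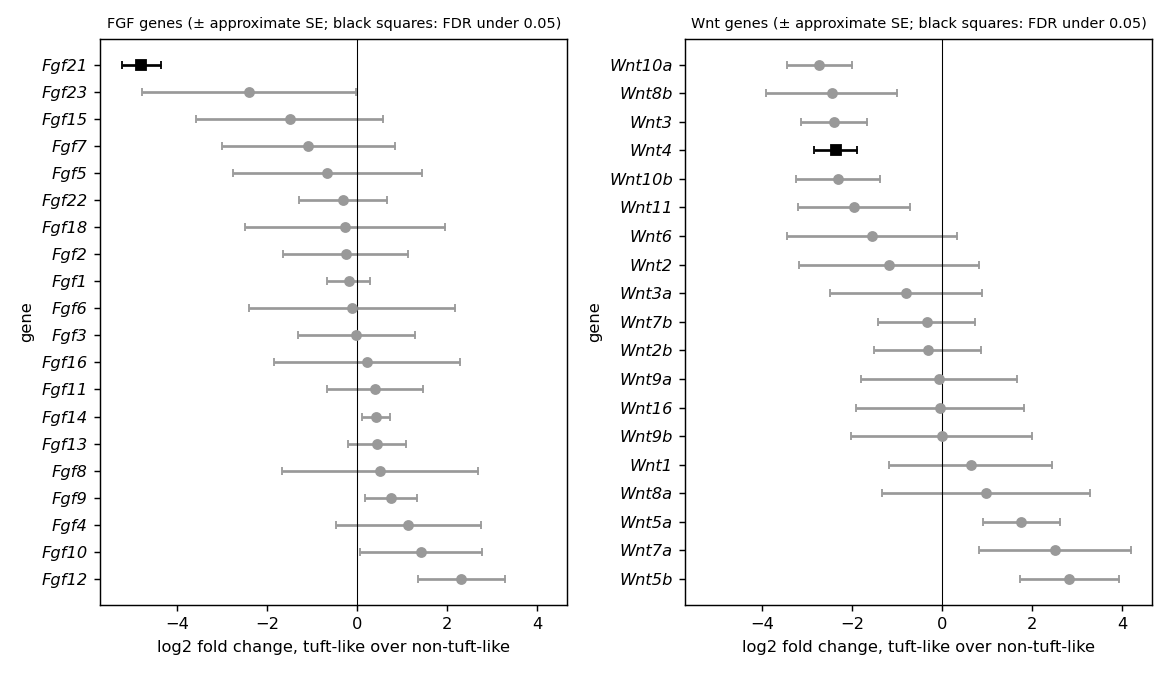
Log2 fold change of the 20 FGF and 19 Wnt genes tested, with the approximate SE as error bar and black squares for an FDR under 0.05. Fgf21 at -4.80 and Wnt4 at -2.37 are the genes called, and wide bars mark the genes with few reads.

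In the Wnt family, Wnt4 was called lower in tuft-like mTEC, and the separated libraries of Wnt3, Wnt8b, Wnt10a and Wnt10b had the same order without a call. Wnt4 (ENSMUSG00000036856, chromosome 4, 137277489 to 137299726, plus strand) had 24.4, 26.2 and 35.5 CPM across the non-tuft-like libraries and 6.86, 4.76 and 5.05 CPM in the tuft-like replicates. The values were tight within each population and far apart between them. The means were 28.7 ± 5.95 and 5.56 ± 1.14 CPM (SD, n = 3 each), a 5.16-fold decrease with a log2 fold change of -2.37 (SE 0.47, edgeR FDR 0.0293). The call was lost without non-tuft-like replicate 1 (edgeR FDR 0.0793), 2 (0.136) or 3 (0.173) or tuft-like replicate 2 (0.148), while the log2 fold change remained between -2.54 and -2.21 without any single library.

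Wnt10a, a ligand of teeth, hair and other ectodermal organs, was the most abundant Wnt gene per exon length in non-tuft-like mTEC, at 11.3 CPM per kb. Wnt10a (ENSMUSG00000026167, chromosome 1, 74791516 to 74804179) had 32.6, 29.1 and 22.2 CPM in the non-tuft-like and 6.86, 4.999 and 0.83 CPM in the tuft-like replicates. The populations did not overlap, and tuft-like replicate 3 was the lowest. Its log2 fold change of -2.73 (SE 0.72) did not pass the threshold (edgeR FDR 0.107), but did without tuft-like replicate 3 (-2.28, edgeR FDR 0.0248). Wnt3 (ENSMUSG00000000125, chromosome 11, 103774150 to 103817957), known as a Paneth cell ligand for intestinal stem cells, had 15.6, 18.1 and 11.6 CPM against 3.88, 1.14 and 3.53 CPM. All tuft-like libraries again lay below all non-tuft-like ones (log2 fold change -2.40, SE 0.74, edgeR FDR 0.189).

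Wnt10b and Wnt8b showed the same order at lower levels. Wnt10b (ENSMUSG00000022996, chromosome 15, 98770712 to 98778150), which acts through beta-catenin, had 4.10, 10.4 and 12.3 CPM in the non-tuft-like and 0.95, 2.02 and 2.40 CPM in the tuft-like replicates (log2 fold change -2.31, SE 0.93, edgeR FDR 0.427). Wnt8b, a ligand of the developing forebrain, had 4.76, 3.21 and 4.70 against 1.82, 0.44 and 0.06 CPM, the last from 2 reads (log2 fold change -2.46, SE 1.45). Wnt11 overlapped at 3.41, 6.43 and 18.0 against 3.35, 3.68 and 0.08 CPM (log2 fold change -1.97, SE 1.24), and Wnt7b overlapped at 0.85, 8.005 and 15.5 against 1.198, 7.07 and 10.8 CPM. The log2 fold change of Wnt7b was -0.35 (SE 1.09) and turned to 0.47 without non-tuft-like replicate 3 and to 0.15 without tuft-like replicate 1.

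Wnt5a, Wnt5b and Wnt7a had the highest positive log2 fold changes of the Wnt genes, and 0 of these 3 were called by edgeR's quasi-likelihood test, with only Wnt5b at an unadjusted p under 0.05. Wnt5b (ENSMUSG00000030170, chromosome 6, 119432531 to 119544347) had 0.54, 0.83 and 4.96 CPM in the non-tuft-like and 2.81, 18.9 and 23.0 CPM in the tuft-like replicates. Tuft-like replicates 2 and 3 were far above all other libraries, while tuft-like replicate 1 lay below non-tuft-like replicate 3. Its log2 fold change was 2.82 (SE 1.10, edgeR FDR 0.392), and DESeq2 was the only one of 14 alternatives to call it. Wnt5a (ENSMUSG00000021994, chromosome 14), which acts mostly without beta-catenin as Wnt5b does, had 0.82, 4.96 and 8.23 against 13.1, 9.21 and 25.2 CPM (log2 fold change 1.76, SE 0.85, edgeR FDR 0.645). Of its 7823 exonic bases, 358 overlap Gm2670 on the other strand. In all, 9 ligand genes share exonic bases with another gene. On the other strand these are 220 of 4182 bases in Fgf14 and 787 of 3058 in Fgf15. For Wnt7b they are 324 of 4898 and for Wnt11 364 of 4137. Wnt7a had 0, 0.40 and 1.68 CPM in the non-tuft-like and 2.07, 4.27 and 5.55 CPM in the tuft-like replicates (log2 fold change 2.50, SE 1.70), without overlap but at low counts.

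Fibroblasts and endothelial cells also use Wnt5a, and their markers were read alongside. The 9 fibroblast markers summed to 65.7, 68.1 and 91.98 CPM in the non-tuft-like and 218.3, 101.1 and 44.4 CPM in the tuft-like libraries, with 8 of 9 at a positive log2 fold change, 0 called by edgeR's test and 0 at an unadjusted p under 0.05. The 5 endothelial markers summed to 35.7, 63.7 and 37.9 against 337.9, 170.9 and 230.7 CPM, so every tuft-like library lay above every non-tuft-like one. Only Tek was called, at 22.2, 36.7 and 11.4 against 169.2, 141.8 and 225.0 CPM, and it made up most of the endothelial sum in tuft-like replicates 2 and 3. Over all genes tested, 1.16% were called higher. Pecam1 stood at 106.3 CPM in tuft-like replicate 1 and at 8.16 and 3.07 CPM in tuft-like replicates 2 and 3. In tuft-like replicate 3, Col3a1, Dpt and the endothelial gene Emcn had 0 counts, while Pdgfrb, at 24.0 CPM, lay above all non-tuft-like libraries. The part of these cells in the levels of Wnt5a, Wnt5b and Wnt7a was not tested.

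The make-up of the Wnt transcripts was compared by each gene's share of the summed Wnt level per exon length. This grouping was chosen after the values were seen and has no test. Wnt3, Wnt4, Wnt10a and Wnt10b together made up 85.0%, 74.0% and 55.4% across the non-tuft-like libraries and 33.5%, 20.1% and 17.4% in the tuft-like replicates. Wnt5a, Wnt5b and Wnt7a made up 1.03%, 2.95% and 7.70% against 19.0%, 47.1% and 69.7%. The share left to the other Wnt genes had the same order over the libraries as the share of reads on no gene. The part of these reads in the make-up was not tested. The summed Wnt level itself was 29.8 to 44.8 CPM per kb in non-tuft-like and 17.8 to 20.5 CPM per kb in tuft-like mTEC.

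**Figure D3:**
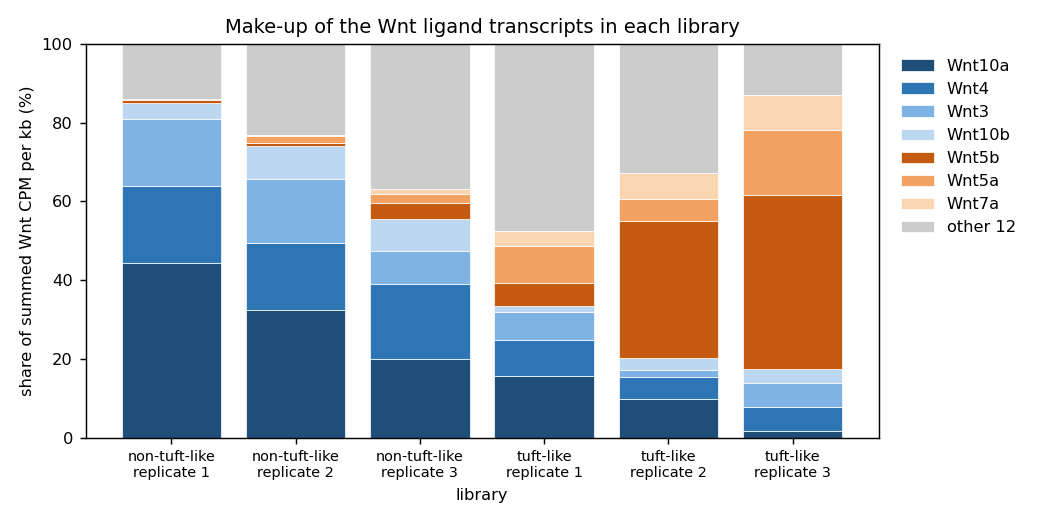
Share (%) of each Wnt gene in the summed Wnt level (CPM per exonic kb) of each library, stacked to the full height, with blue shades for Wnt10a, Wnt4, Wnt3 and Wnt10b, orange shades for Wnt5b, Wnt5a and Wnt7a and grey for the other 12 genes. Wnt10a holds 44.4% in non-tuft-like replicate 1 and 1.72% in tuft-like replicate 3, where Wnt5b holds 44.3%.

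The remaining Wnt genes, namely Wnt1, Wnt2, Wnt2b, Wnt3a, Wnt6, Wnt8a, Wnt9a, Wnt9b and Wnt16, had means between 0.40 and 3.51 CPM in both populations, overlapped, and were not called. Many ligand genes lie in pairs or clusters that are old tandem copies, and neighbours differed in level. On chromosome 1, Wnt6 and Wnt10a lie 6194 bp apart, and in non-tuft-like mTEC Wnt10a had 11.3 CPM per kb and Wnt6 0.73. On chromosome 11, Wnt9b and Wnt3 are separated by 24329 bp and stood at 0.26 and 4.91 CPM per kb. On chromosome 15, Wnt10b and Wnt1 lie 11707 bp apart, at 2.62 and 0.36 CPM per kb. The second pair of chromosome 11, Wnt3a and Wnt9a, and the FGF clusters Fgf3, Fgf4 and Fgf15 on chromosome 7 and Fgf6 and Fgf23 on chromosome 6 stayed at or below 1.06 CPM per kb in both populations.

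Most ligand genes were close to the level of genes that TEC are not known to use. As a reference, the 99th percentile of 1134 olfactory receptor genes lay between 1.24 and 2.75 CPM per kb in the 6 libraries. Fgf1, Fgf14 and Fgf21 exceeded it in all 6 libraries, Wnt3, Wnt4 and Wnt10a in all 3 non-tuft-like libraries, and Fgf9 in all 3 tuft-like libraries. Wnt3 and Wnt4 exceeded it in 0 tuft-like libraries, and 23 of the 41 genes exceeded it in no library. Of the other genes with separated libraries, Fgf12, Wnt5a and Wnt7a each exceeded it in 1 tuft-like and 0 non-tuft-like libraries. Wnt10b did so in 2 non-tuft-like and 0 tuft-like libraries, and Wnt8b in no library. This reference is a level and not a limit of expression, since olfactory receptor genes may themselves be transcribed in mTEC. It also differed between libraries. The summed olfactory receptor level was 658.7, 727.9 and 1572 CPM in the non-tuft-like and 2298, 1330 and 256.9 CPM in the tuft-like replicates. The libraries had the same order in their shares of reads on no gene, and the part of these reads in the reference was not tested. The number of ligand genes with 0 counts was 8, 1 and 0 across the non-tuft-like libraries and 0, 1 and 14 in the tuft-like replicates, beside shares of reads on no gene of 34.4%, 36.6% and 52.5% and of 61.6%, 47.6% and 19.7%. The libraries with the lowest shares in each population thus had the most ligand genes at 0, and the part of these reads in the low values was not tested.

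**Figure D4:**
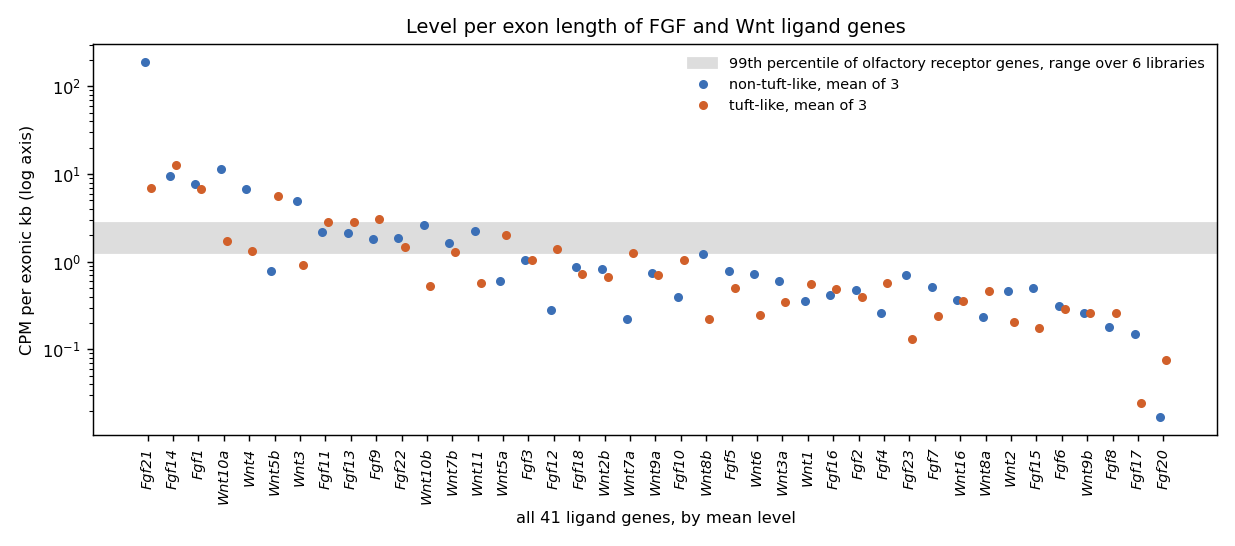
Mean level per exonic kb (log axis) of all 41 ligand genes in non-tuft-like (blue) and tuft-like (orange) mTEC, ordered by the mean over 6 libraries, with a grey band for the 99th percentile of olfactory receptor genes (1.24 to 2.75 CPM per kb). Fgf21 stands apart at 191.0 CPM per kb in non-tuft-like mTEC, and most genes lie in or below the band.

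Genes that receive, release, block or relay these ligands were taken from fixed lists of 84 genes, 25 of the FGF and 59 of the Wnt pathway, of which 81 were tested. Of these, 1 was called lower in tuft-like mTEC (Nkd2) and 0 were called higher, beside 0.951% and 1.16% of all genes tested. At an unadjusted p under 0.05 there were 9 lower and 1 higher, where all genes gave 4.59% and 4.38%, and DESeq2 called 8 lower and 1 higher, where it called 2.86% and 3% of all genes. The median log2 fold change was -0.40, against 0.02 over all genes tested. Without overlap, 15 pathway genes were lower and 2 higher (Klb and Tcf7l1), beside 8.85% and 7.18% of all genes.

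Nkd2 (ENSMUSG00000021567), a target of Wnt signalling that binds Dishevelled and dampens the signal, had 68.3, 58.1 and 85.4 CPM across the non-tuft-like libraries and 15.2, 4.09 and 12.2 CPM in the tuft-like replicates. The populations were clearly apart. Its log2 fold change was -2.75 (SE 0.48, edgeR FDR 0.0147), and it was called in all 14 alternative settings. The other Wnt targets listed, Axin2, Nkd1, Tnfrsf19 and Apcdd1, were not called, and Sp5 did not pass the filter. Nkd1 and Tnfrsf19 had a positive log2 fold change, opposite to Nkd2, while Axin2 and Apcdd1 had a negative one. Each of these genes overlapped between the populations. Of the 5 targets tested, Nkd2 included, 3 had a negative and 2 a positive log2 fold change, so the list had no common direction.

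Both genes of Wnt secretion stood lower in every tuft-like library without being called by edgeR's test, whereas DESeq2 called both. Porcn, the enzyme that attaches the lipid to Wnts, had 24.4, 23.5 and 33.3 against 10.3, 6.58 and 8.09 CPM (log2 fold change -1.70, SE 0.46, edgeR FDR 0.113). Wls, the carrier that takes Wnts to the cell surface, had 141.5, 150.7 and 139.8 against 60.7, 79.8 and 92.35 CPM (log2 fold change -0.89, SE 0.27, edgeR FDR 0.175). Of the 15 secreted or membrane antagonists of Wnt signalling, 13 had a negative log2 fold change (median -1.14), beside 49.0% of all genes tested. By edgeR's test 0 were called. An unadjusted p under 0.05 gave 3 lower, and DESeq2 called 3 lower (Kremen2, Sfrp1 and Sostdc1), beside 4.59% and 2.86% of all genes. Several had few reads and a wide SE, such as Dkk1 (2.42), Notum (2.32), Sost (2.29) and Wif1 (2.28). Sfrp5, the most abundant antagonist in counts, had 134.2, 107.5 and 83.0 against 34.2, 33.6 and 100.7 CPM. Its tuft-like replicate 3 thus lay within the non-tuft-like range.

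Of the 15 Wnt receptors and co-receptors tested, 0 were called by edgeR's test. Without overlap, 3 were lower (Fzd1, Fzd7 and Fzd10) and 0 higher, beside 8.85% and 7.18% of all genes. Fzd1 had 21.7, 56.4 and 44.8 against 3.10, 11.7 and 0.22 CPM (log2 fold change -3.03, SE 1.02, edgeR FDR 0.254), and DESeq2 called it. Fzd6, the most abundant of them in counts, overlapped at 57.0, 61.9 and 49.4 against 30.4, 43.2 and 78.7 CPM. Of the R-spondin axis, Rnf43, the ubiquitin ligase that removes Frizzled receptors from the surface and is itself held back by R-spondins, was the most abundant and overlapped as well (log2 fold change 0.19, SE 0.33). Ctnnb1, which encodes beta-catenin, had 248.9, 319.4 and 237.7 against 154.4, 174.4 and 233.7 CPM (log2 fold change -0.52, SE 0.29, edgeR FDR 0.799). The signal relay list had a median of 0.21, with 6 of 11 genes at a positive log2 fold change and 0 called by edgeR's test, while DESeq2 called Tcf7l1, the only gene of the list at an unadjusted p under 0.05. Tcf7l1, a DNA-binding partner of beta-catenin, had 16.0, 16.9 and 22.6 CPM in the non-tuft-like and 34.0, 39.7 and 93.5 CPM in the tuft-like replicates (log2 fold change 1.59, SE 0.43, edgeR FDR 0.12).

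Of the 7 receptors and co-receptors of FGFs, 0 were called by edgeR's test, and only Fgfr2 had an unadjusted p under 0.05 and a call by DESeq2. Fgfr2, the receptor through which FGF7 and FGF10 act on thymic epithelium, had 22.4, 58.0 and 91.1 CPM in the non-tuft-like and 21.9, 18.0 and 14.6 CPM in the tuft-like replicates. The highest tuft-like library reached almost the lowest non-tuft-like one (log2 fold change -1.65, SE 0.48, edgeR FDR 0.154), and Fgfr2 was called without non-tuft-like replicate 1 (-2.04, edgeR FDR 0.0256). Fgfr3 overlapped at 14.6, 28.5 and 31.8 against 13.3, 16.1 and 8.45 CPM, and Fgfr1 at 7.70, 4.39 and 26.9 against 26.4, 22.1 and 1.44 CPM. Klb, the beta-Klotho that FGF21 needs, had 0.60, 1.34 and 2.16 against 3.06, 4.39 and 3.23 CPM, without overlap and without a call (log2 fold change 1.38, SE 1.202). Kl, the co-receptor of FGF23, ranged from 3.98 to 32.0 CPM in non-tuft-like and from 0.03 to 10.35 CPM in tuft-like mTEC. Fgfr4 and Fgfrl1 overlapped as well. Of the 18 FGF carriers, adaptors, feedback and target genes 0 were called by edgeR's test or by DESeq2, 1 (Dusp4) had an unadjusted p under 0.05, and Flrt3, the most abundant, had a log2 fold change of 0.45 (SE 0.29).

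**Figure D5:**
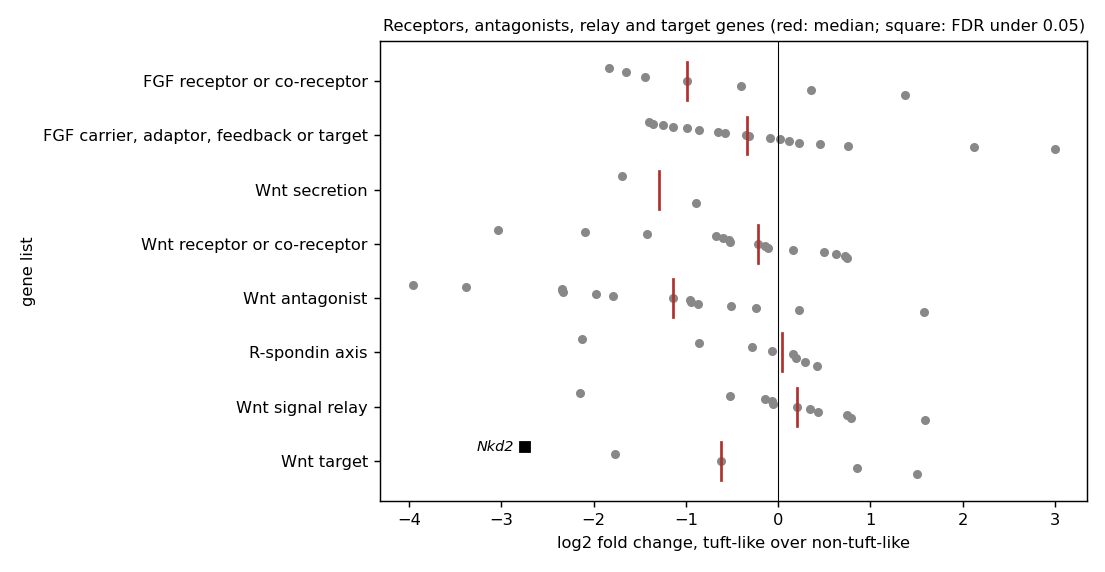
Log2 fold change of the 81 pathway genes tested, by list, with a red line at each list's median and a square for an FDR under 0.05. Nkd2 at -2.75 is the only gene called, and the antagonists lie mostly below 0, with a median of -1.14. Of all genes tested, 49.0% had a negative log2 fold change.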

How the data were processed

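The authors trimmed reads with Trimmomatic (version 0.36), aligned them to mm10 with STAR (2.7.3a), assigned them to genes with HTSeq and deposited raw read counts per gene. The annotation release and strand setting are not given in the sources used here, so reads of genes that overlap on opposite strands cannot be told apart. The 92 ERCC rows, all at 0, and 5 HTSeq summary rows were left out. Identifiers were matched to GENCODE M21, which named 99.7% of 52636 gene rows and gave exon lengths. In R 4.3.3, genes were filtered (edgeR 4.0.16 filterByExpr, minimum count 10, minimum total 15), scaled by TMM and tested by the quasi-likelihood F-test without covariates, with Benjamini-Hochberg adjustment over all genes and the SE derived from the fold change and F. Alternatives used DESeq2 1.42.0, limma 3.58.1 and other settings. The procedure was also run on simulated counts, in which only genes above the median level were changed. That run does not cover changes in genes with few reads. Values are given for tested ligand genes that were called, did not overlap or reached 5 CPM in a population, and for pathway genes that were called, FGF receptors and the most abundant gene of each list. Genes outside this rule were named after their values were seen (Fzd1, Porcn and Tcf7l1, markers, and genes in small counts). Members and lists were chosen with earlier results of these data known.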

Additional observations from a re-analysis of the deposited data

How the results depend on the processing

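The 2 ligand genes called lower became 5 with DESeq2, which also called 1 higher (Wnt5b), and 1 to 3 with each library left out. No filter on low counts gave 3 (Fgf21, Wnt4 and Wnt10a), as did the share of reads on no gene as a covariate. The 1 pathway gene called lower became 2 with library size only, with at least 1 CPM in 3 libraries or with limma voom, 5 with no filter on low counts, 6 with the share of reads on no gene as a covariate and 8 with DESeq2, and 1 to 3 with a library left out. No filter, the covariate and DESeq2 each also called 1 pathway gene higher (Tcf7l1). Over all genes, 687 calls became 1045 with library size only, 1127 with no filter, 1566 with the covariate, 1904 with DESeq2 and 376 to 922 with a library left out. The covariate and limma voom moved the median log2 fold change of all genes to -0.43 and -0.17.

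Genes near 0 changed sign. With limma voom the log2 fold change was 0.058 for Fgf1, -1.05 for Fgf11, 0.058 for Wnt7b, -0.10 for Fgfr1 and 0.23 for Fgfr4. With the covariate it was -0.74 for Fgf11 and -0.20 for Fgfr1. With a library left out it ranged from -0.60 to 0.42 for Fgf1, -0.36 to 0.92 for Fgf11, -0.16 to 0.70 for Fgf13, -1.002 to 0.47 for Wnt7b, -0.14 to 1.46 for Fgfr1, -0.82 to 0.88 for Fgfr4, -0.65 to 0.12 for Fzd6 and -0.13 to 0.43 for Rnf43. The cause was not tested. Fgf21 and Nkd2 were called in all 14 alternatives, Wnt4 in 9 and Wnt10a in 5. All alternatives used the same libraries in which Fgf21 was known to be lower, so its calls are not independent evidence.

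Same-numbered libraries did not deviate together (correlations -0.16, -0.06 and -0.33). With the replicate block, 2 ligand genes were called lower (Fgf21 and Wnt10a, not Wnt4 at edgeR FDR 0.0770) and 1 pathway gene (Nkd2), 737 genes in all, and the log2 fold change was 0.044 for Fgf1, -0.45 for Fgf11 and 0.12 for Fgfr4.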
